A study of Mus musculus with 16 samples.

Results

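Transcription factors that build and maintain photoreceptors were followed across 6 groups of mouse retina that differed in genotype and light dose. The set comprised 10 genes: Crx, Nrl, Nr2e3, Otx2, Rorb, Thrb, Rxrg, Neurod1, Mef2c and Samd7. Members were the probe sets annotated to one of these symbols alone, 18 of the 45037 on the array, and they covered 9 of the 10 genes. Nr2e3 was not analysed here. Filtering on low signal (2 or more of the 16 arrays had to exceed an intensity of 16, which is log2 4) kept 17 of the 18 probe sets and 8 genes, of 10916 genes tested in all. The single Thrb probe set, which stands for the thyroid hormone receptor that directs M cone identity, did not pass: its highest array was at log2 3.61.

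The arrays carried RNA of neural retina that had been dissected away from the retinal pigment epithelium, from albino BALB/c mice of both sexes in equal numbers, 11 to 16 weeks old. Mice spent 16 h in darkness, received white fluorescent light for 1 h and went back to darkness for 24 h before the retina was taken. The mice were Nxnl1+/+ (wild type) or Nxnl1-/- (knockout), the gene of a factor that rods secrete to sustain cones. The groups were wild type at 50 lux (2 arrays), 2500 lux (3) and 5000 lux (3), and knockout at 50 lux (3), 2500 lux (3) and 5000 lux (2). All mice, the 50 lux controls included, shared the albino strain, the dark adaptation and the hour of light, so 50 lux was a low dose and not darkness. The labels call the samples biological replicates but do not say whether an array held 1 animal or a pool, and p-values here measure the spread between these arrays.

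A small network of transcription factors sets photoreceptor identity. Otx2 acts first and switches on Crx, and CRX then works with NRL and its target NR2E3 at rod genes such as those of the phototransduction cascade, while RORB lies upstream of Nrl and thyroid hormone receptor beta with RXRG directs cone opsin choice. NEUROD1 supports photoreceptor survival, MEF2C is a MADS box factor of photoreceptors and of several other cell types, and SAMD7 is a rod Polycomb component that silences genes of other cell types.

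Promoter windows of the 4 measured members that have 1 window each are printed, to show which letters of the factors' own motifs lie just before the genes that encode them. Each window holds the 250 bases before the transcription start (RefSeq, GRCm38.p6, written 5′ to 3′ in the direction of the gene), and all 10 members have at least 1 window in that table. Capitals mark matches, on either strand, to 5 motifs: TAATCC (the CRX and OTX2 core), TGCTGA (the NRL core), AGGTCA (nuclear receptors, RORB included), CAGATG (an E-box bound by NEUROD1) and the MEF2 core (CTA and TAG separated by any 4 bases). The Crx window is chr7:15879956-15880205 on the minus strand, Nrl is chr14:55524253-55524502 on the minus strand, Samd7 is chr3:30746043-30746292 on the plus strand and Neurod1 is chr2:79456637-79456886 on the minus strand.
Crx: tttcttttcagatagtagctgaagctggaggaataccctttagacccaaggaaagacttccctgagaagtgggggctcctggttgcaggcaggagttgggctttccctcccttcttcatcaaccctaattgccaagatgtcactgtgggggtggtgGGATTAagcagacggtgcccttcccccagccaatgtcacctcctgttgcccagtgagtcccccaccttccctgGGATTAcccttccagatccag
Nrl: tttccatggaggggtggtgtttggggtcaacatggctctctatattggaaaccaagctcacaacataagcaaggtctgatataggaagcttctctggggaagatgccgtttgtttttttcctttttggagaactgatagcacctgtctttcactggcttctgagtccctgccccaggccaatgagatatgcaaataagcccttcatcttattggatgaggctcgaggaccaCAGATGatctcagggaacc
Samd7: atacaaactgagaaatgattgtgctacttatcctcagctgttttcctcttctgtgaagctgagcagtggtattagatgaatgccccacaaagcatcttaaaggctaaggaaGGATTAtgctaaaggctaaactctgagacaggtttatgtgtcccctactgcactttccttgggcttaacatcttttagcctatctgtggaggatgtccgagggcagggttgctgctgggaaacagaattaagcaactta
Neurod1: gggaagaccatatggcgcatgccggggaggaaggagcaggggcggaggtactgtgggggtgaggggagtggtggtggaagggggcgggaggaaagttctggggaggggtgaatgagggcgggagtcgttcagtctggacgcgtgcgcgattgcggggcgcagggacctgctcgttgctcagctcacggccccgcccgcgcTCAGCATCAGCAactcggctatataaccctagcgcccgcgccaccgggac
In the Crx window TAATCC matched on the reverse strand at positions -94 to -89 and -21 to -16 from the start, the motif of the factor that the gene itself encodes. The Nr2e3 window, the other single one, held no match to the 5 motifs and is not printed. The Samd7 window held 1 TAATCC match, at -139 to -134. Nrl held the NEUROD1 E-box at -19 to -14, and Neurod1 held 2 adjoining NRL cores, at -50 to -45 and -44 to -39, which do not overlap. Among 32851 promoter windows of this length, 6.25% held TAATCC, 16.1% TGCTGA, 14.0% AGGTCA, 14.4% CAGATG and 3.2% the MEF2 motif. Of the 13 windows of a list of 22 rod genes controlled by these factors, 6 held TAATCC (46.2%), 5 AGGTCA (38.5%), 4 TGCTGA (30.8%), 1 the MEF2 motif (7.69%) and 0 CAGATG. These matches describe letters in a window and are not evidence of binding.

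Array values were intensities deposited by the authors, and all levels below are their log2. Array medians ran from 14.4 to 15.8 in intensity. Nxnl1 separated the genotypes as labelled: it lay between 7.53 and 7.61 in wild type at 50 lux, between 5.64 and 6.84 in wild type after brighter light, and at 2.92 or less on all 8 knockout arrays. Rod markers stood high on every array (Gnat1 between 13.94 and 14.37), while the pigment epithelium list of 8 tested genes had a summed level of 11.70 to 13.75 although that layer had been removed. Lens crystallins stood apart: the summed lens level was 15.62 on 1 of the wild-type 5000 lux arrays and 10.78 to 12.68 on the knockout 50 lux arrays, against 5.04 to 7.05 in wild type at 50 lux. It was 7.06 to 12.61 in the knockout at 2500 lux and 5.99 to 11.86 at 5000 lux, and the median lens gene changed by -2.63 and -2.59 from the knockout at 50 lux, with none of 5 past the test. The part of lens RNA in the knockout light changes was not tested. In whole retina, fewer cells of a type and less RNA per cell cannot be told apart.

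The first comparison asked what brighter light did to these factors. A day after 2500 or 5000 lux, Nrl, Crx, Otx2, Samd7 and Mef2c were lower than after 50 lux, by between 1.31 and 1.66 fold averaged over genotypes and both bright doses, and Neurod1 was 1.27 fold higher. Rxrg did not pass the test, and of 3 Rorb probe sets 1439862_at alone did, at -0.59 on the log2 scale. In this averaged contrast (limma, adjusted over all 23320 probe sets tested, threshold 0.05) 5 of 8 members fell, where 17.8% of all genes fell, and 1 of 8 rose, where 14.4% of all genes rose. The median member changed by -0.41 against -0.03 over all genes. Markers of the photoreceptors themselves fell in the same contrast, 4 of 4 rod markers tested (median -0.36) and 3 of 5 cone markers (median -0.82). So did 4 of 6 ganglion cell markers (median -0.50), 2 of 6 amacrine markers (median -0.35) and 1 of 3 horizontal cell markers (median -0.29), while of 6 Müller glia markers 3 fell and 2 rose (median -0.24). The summed rod level was 16.16 to 16.20 in wild type at 50 lux and 15.80 to 15.94 at 2500 and 5000 lux, and 16.09 to 16.23 in the knockout at 50 lux and 15.65 to 15.98 at the brighter doses. The part of photoreceptor content in the changes of the factors was not tested. Here and below a gene is represented by its brightest probe set unless another is named.

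Nrl, the leucine zipper factor that commits precursors to the rod fate, was lower past the threshold in every light comparison of either genotype. In wild type it read 13.80 and 13.83 at 50 lux, 13.45, 13.06 and 12.90 at 2500 lux, and 13.20, 13.37 and 13.24 at 5000 lux. In the knockout it read 13.69, 13.89 and 13.93, then 12.91, 12.86 and 12.89, then 13.45 and 13.21. Every bright array of either genotype lay below every 50 lux array. The averaged fall was -0.67 (SE 0.09, fold 1.59, adjusted p 9.56e-05, limma).

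Crx, the homeobox factor that activates most photoreceptor genes, moved in a similar way. Its wild-type values were 13.24 and 13.18 at 50 lux, 12.84, 12.58 and 12.67 at 2500 lux, and 12.72, 12.92 and 12.59 at 5000 lux. Knockout arrays gave 13.08, 13.05 and 13.09, then 12.60, 12.59 and 12.54, then 12.88 and 12.85. The bright and 50 lux arrays did not overlap, and the averaged change was -0.42 (SE 0.07, fold 1.34, limma adjusted p 0.000476). The dimmer Crx probe set (1449185_at) fell by 0.46 (SE 0.08, adjusted p 0.000848), although there the 2 knockout 5000 lux arrays, at 11.00 and 11.07, lay within the knockout 50 lux range of 10.90 to 11.16.

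Otx2 encodes the homeobox factor above Crx, and it is also expressed in bipolar cells and pigment epithelium. It read 12.12 and 12.09 in wild type at 50 lux, 11.66, 11.53 and 11.43 at 2500 lux, and 11.57, 11.81 and 11.74 at 5000 lux. In the knockout it read 11.83, 11.87 and 11.89, then 11.46, 11.36 and 11.44, then 11.63 and 11.75. Again no bright array reached a 50 lux array, and Otx2 fell by 0.39 (SE 0.06, fold 1.31, limma adjusted p 0.000476). Pigment epithelium markers also fell in the averaged contrast, 6 of 8 tested, with a median of -0.92. In wild type their summed level was 13.27 to 13.75 at 50 lux, 12.50 to 13.33 at 2500 lux and 11.70 to 12.27 at 5000 lux. Taken singly, 1 of 8 fell in wild type at 2500 lux and 6 at 5000 lux. In the knockout 1 fell at 2500 lux and 0 at 5000 lux. Best1, a defining marker of that layer, sat at the array's lowest value throughout. Of 6 bipolar markers tested, 1 rose and 1 fell. The part of either cell type in the Otx2 result was not tested.

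Samd7, the rod Polycomb factor, read 11.09 and 11.14 in wild type at 50 lux, 10.58, 10.69 and 10.07 at 2500 lux, and 10.78, 10.17 and 10.08 at 5000 lux. The knockout gave 10.85, 11.05 and 10.86, then 10.01, 10.50 and 10.23, then 10.87 and 10.45. Only 1 bright array, in the knockout at 5000 lux, reached into the 50 lux range. The averaged change was -0.59 (SE 0.14, fold 1.51, limma adjusted p 0.00628). The second Samd7 probe set (1430817_at) scattered more, from 8.25 to 10.25 over all arrays, and did not pass (-0.17, SE 0.24, adjusted p 0.625), so the fall rested on 1 of 2 probe sets.

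Neurod1, a basic helix-loop-helix factor that keeps adult photoreceptors alive, went the other way. Its values in wild type were 13.10 and 13.16 at 50 lux, 13.29, 13.56 and 13.22 at 2500 lux, and 13.37, 13.50 and 13.50 at 5000 lux. In the knockout they were 12.89, 12.98 and 13.08, then 13.46, 13.35 and 13.41, then 13.42 and 13.36. All 11 bright arrays exceeded all 5 arrays at 50 lux, and the averaged rise was 0.35 (SE 0.07, fold 1.27, limma adjusted p 0.00223). The other Neurod1 probe set (1426413_at) read 12.24 to 12.77 at 50 lux and 13.15 to 13.47 in brighter light, a rise of 0.73 (SE 0.07, fold 1.66, adjusted p 6.99e-06).

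Without overlap between bright and 50 lux arrays, 3 members were lower (Crx, Nrl and Otx2), where 6.2% of all genes were so, and 1 was higher (Neurod1), where 5.9% were.

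**Figure D1:**
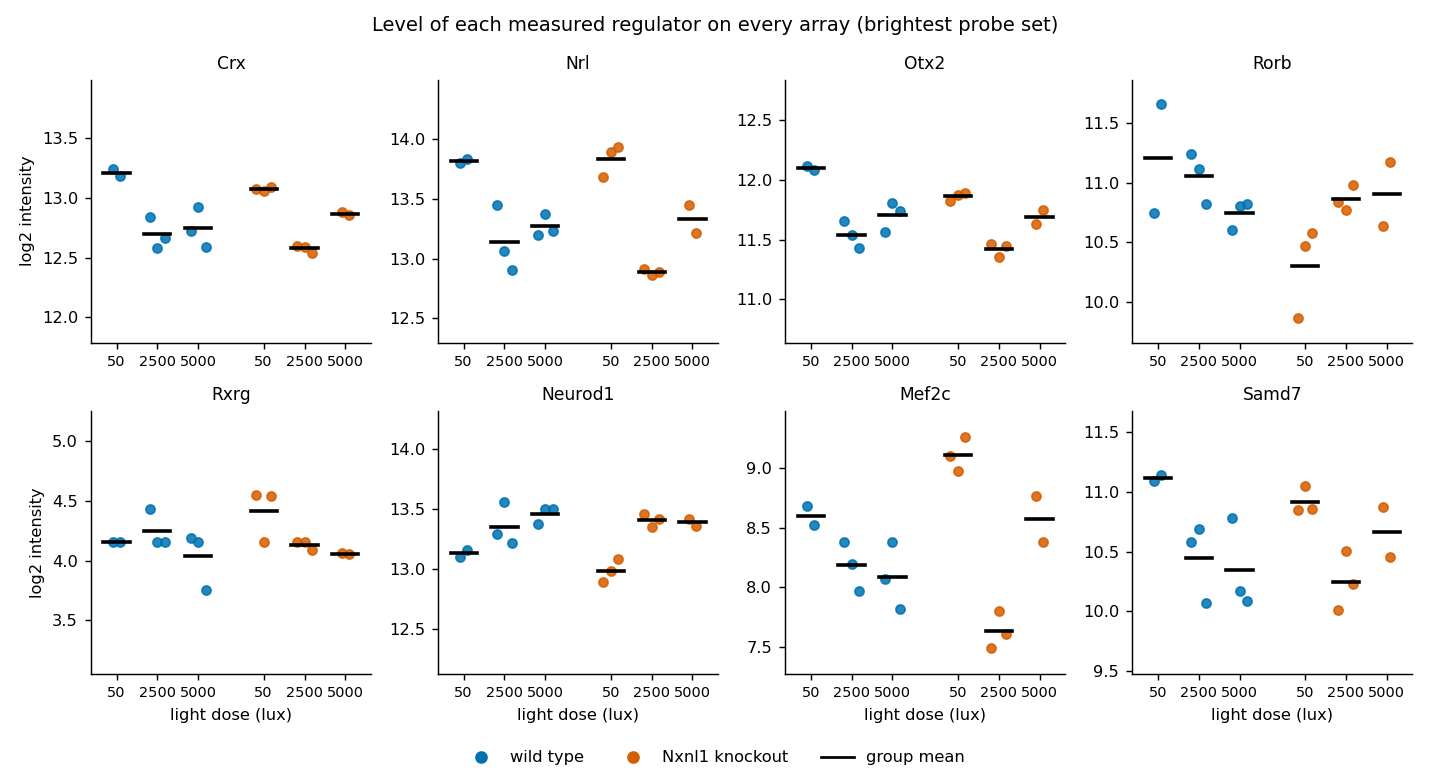
Log2 of the deposited intensity on each array (vertical axis, a separate range per panel) for the 8 members tested, brightest probe set of each, by genotype and dose; points are arrays and bars are group means. For Crx, Nrl and Otx2 every bright array lies below every 50 lux array, and for Neurod1 every bright array lies above.

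The next comparisons took each genotype and dose alone; the 2 bright doses of a genotype share its 50 lux arrays. In wild type at 2500 lux, 3 members fell and 0 rose, where 5.13% and 8.93% of all genes did. Otx2 changed by -0.56 (SE 0.11, limma adjusted p 0.00382), Nrl by -0.68 (SE 0.15, adjusted p 0.00914) and Crx by -0.51 (SE 0.11, adjusted p 0.00984). At 5000 lux in wild type, 4 members fell and 0 rose, where 5.27% and 7.56% of all genes did. These were Crx at -0.46 (SE 0.11, adjusted p 0.0178), Otx2 at -0.40 (SE 0.11, adjusted p 0.0291), Nrl at -0.55 (SE 0.15, adjusted p 0.0308) and Samd7 at -0.77 (SE 0.23, adjusted p 0.0496). At an unadjusted p below 0.05, 0 members were higher at 2500 lux and 1 at 5000 lux (Neurod1, at 0.33 with an adjusted p of 0.094). The other Neurod1 probe set, 1426413_at, did pass in wild type, at 0.52 (adjusted p 0.0125) and 0.64 (adjusted p 0.00396); the former was lost without wild-type 50 lux replicate 1 or 2 (adjusted p 0.0804 and 0.0909). Leaving out wild-type 50 lux replicate 1 or 2 ended the calls of Crx (adjusted p 0.0914 and 0.0569) and Nrl (0.0666 and 0.0737) at 2500 lux, while Otx2 remained called. At 5000 lux no member remained called without wild-type 50 lux replicate 1, wild-type 50 lux replicate 2 or wild-type 5000 lux replicate 3, with the adjusted p of Crx at 0.146, 0.0811 and 0.0782, of Nrl at 0.152, 0.156 and 0.0923, and of Otx2 at 0.182, 0.122 and 0.0653. Without wild-type 5000 lux replicate 1, Nrl (0.0822) and Otx2 (0.0951) were lost, and the Samd7 call was lost without any of 12 of the 16 arrays (adjusted p 0.0503 to 0.207).

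Knockout retinas at 2500 lux had the most members past the threshold. This comparison alone of those with 50 lux in a single genotype had 3 arrays in both groups, so its standard errors were smaller. There 5 fell, where 13.5% of all genes fell, and 1 rose, where 8.87% rose. The falls were Mef2c at -1.48 (SE 0.16, adjusted p 3.43e-05), Nrl at -0.95 (SE 0.13, adjusted p 0.000233), Crx at -0.50 (SE 0.10, adjusted p 0.00383), Otx2 at -0.44 (SE 0.09, adjusted p 0.00534) and Samd7 at -0.67 (SE 0.21, adjusted p 0.0374), all by limma. Neurod1 rose by 0.42 (SE 0.10, adjusted p 0.0109). Samd7 lost its call without any of 7 arrays (adjusted p 0.0501 to 0.134). These were wild-type 50 lux replicates 1 and 2, knockout 50 lux replicates 1, 2 and 3, and knockout 2500 lux replicates 1 and 3. The call was also lost without a filter (limma adjusted p 0.103) and with the mean of its probe sets (-0.43, adjusted p 0.0892). Its second probe set (1430817_at) was at -0.20 (adjusted p 0.738). In wild type at 2500 lux Samd7 also changed by -0.67 and did not pass (SE 0.23, adjusted p 0.0815).

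At 5000 lux in the knockout, 1 member fell, where 7.81% of all genes fell, and 1 rose, where 4.6% rose. Nrl changed by -0.50 (SE 0.15, adjusted p 0.0442, limma) and Neurod1 by 0.40 (SE 0.11, adjusted p 0.0385). Crx was at -0.21 (SE 0.11, adjusted p 0.24) and Otx2 at -0.17 (SE 0.11, adjusted p 0.29). Either call was borderline: leaving out any of 12 arrays for Nrl (all but wild-type 2500 lux replicate 1, wild-type 2500 lux replicate 3, knockout 50 lux replicate 1 and knockout 5000 lux replicate 1) and any of 11 for Neurod1 (all but wild-type 2500 lux replicate 1, wild-type 2500 lux replicate 2, wild-type 2500 lux replicate 3, wild-type 5000 lux replicate 1 and knockout 50 lux replicate 3) moved it past the threshold, with an adjusted p of 0.0504 to 0.315 and 0.0504 to 0.159.

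**Figure D2:**
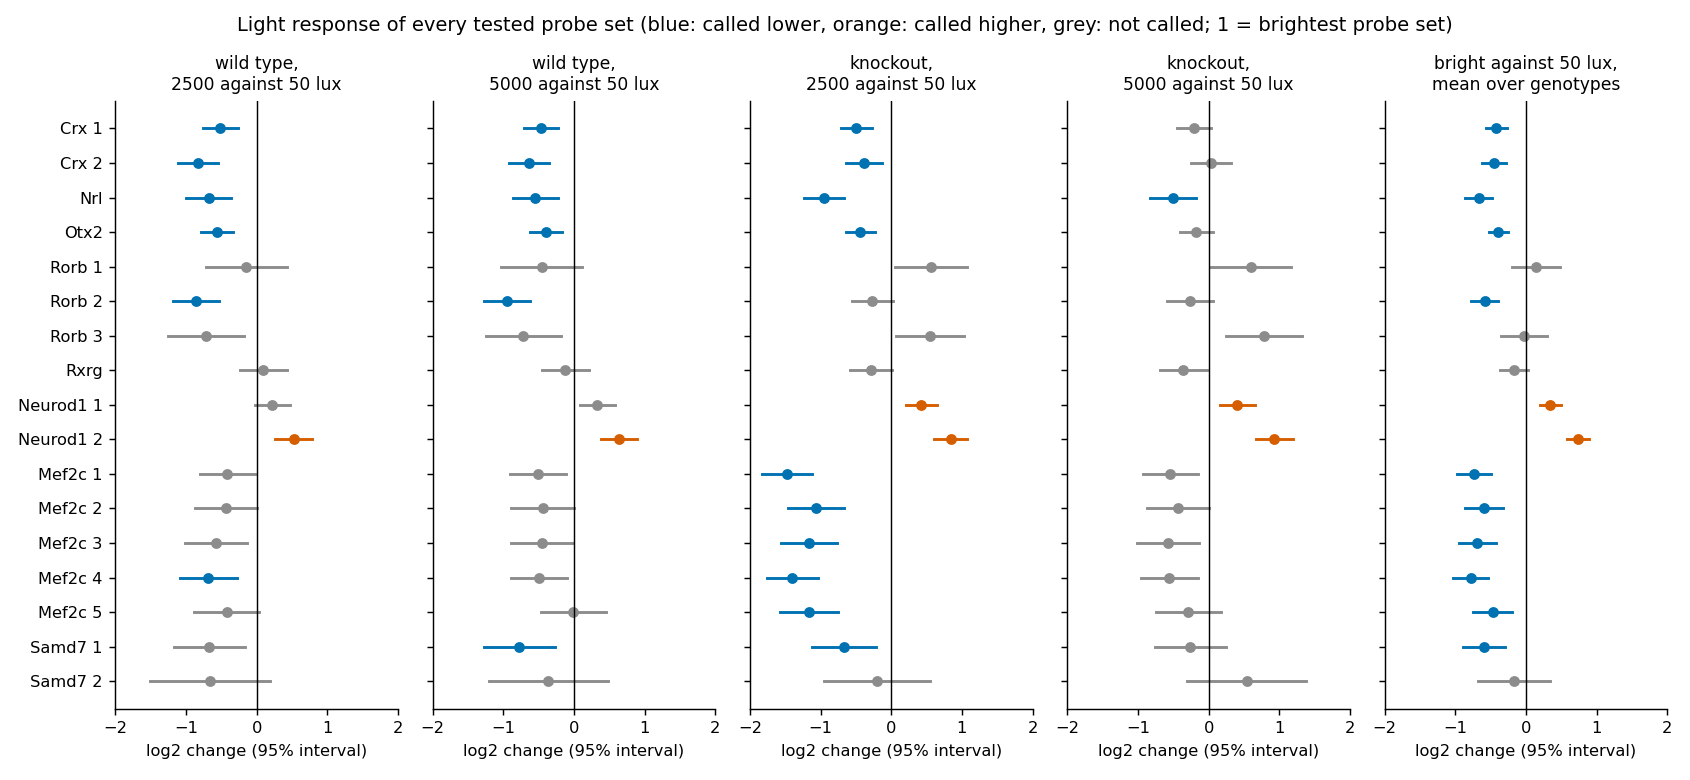
Log2 change from 50 lux (horizontal axis) of the 17 tested probe sets in each genotype at each bright dose and averaged over genotypes, with 95% intervals of the limma estimate; blue was called lower, orange higher, grey not called, and 1 marks a gene's brightest probe set. Nrl is called lower in every panel, both Neurod1 probe sets lie above 0, and the brightest Mef2c probe set lies farthest from 0 in the knockout at 2500 lux, at -1.48.

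Between the bright doses themselves limma called no member. In wild type 0 of 8 differed between 5000 and 2500 lux, 0 also at an unadjusted p below 0.05, and 0% of all genes did. In the knockout 0 of 8 passed, where 0.119% of all genes did, and 4 had an unadjusted p below 0.05, each higher at 5000 lux: Mef2c at 0.94 (95% interval 0.54 to 1.33, adjusted p 0.0814), Nrl at 0.45 (0.13 to 0.76, adjusted p 0.263), Crx at 0.29 (0.05 to 0.54, adjusted p 0.317) and Otx2 at 0.27 (0.04 to 0.50, adjusted p 0.322). Those same 4 did not overlap between the knockout doses, where 15% of all genes were higher without overlap. Rod markers shifted with them: their summed level was 15.65 to 15.74 in the knockout at 2500 lux and 15.93 to 15.98 at 5000 lux. The part of rod content in these 4 values was not tested.

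Mef2c had the widest spread of group means among the 8 members. Wild-type arrays read 8.68 and 8.52 at 50 lux, 8.38, 8.20 and 7.97 at 2500 lux, and 8.07, 8.38 and 7.82 at 5000 lux. Knockout arrays read 9.10, 8.98 and 9.26 at 50 lux, 7.50, 7.80 and 7.61 at 2500 lux, and 8.76 and 8.38 at 5000 lux. The knockout thus held both the highest values, at 50 lux, and the lowest, at 2500 lux, and the fall between them was 2.78 fold. Wild-type 2500 lux replicate 1, wild-type 5000 lux replicate 2 and knockout 5000 lux replicate 2 read exactly the same value, 8.38. The reason for this was not tested. Wild type changed by -0.41 (SE 0.18, adjusted p 0.17) at 2500 lux and -0.51 (SE 0.18, adjusted p 0.1) at 5000 lux, and the averaged change over genotypes was -0.73 (SE 0.11, fold 1.66, limma adjusted p 0.000244).

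All 5 Mef2c probe sets fell in the knockout at 2500 lux, by between 1.06 and 1.48 on the log2 scale, and all 5 fell in the averaged contrast, with changes of -0.47 to -0.78. In wild type 1451507_at alone passed, at 2500 lux (-0.69, SE 0.19, adjusted p 0.0301), a call lost without wild-type 50 lux replicate 1 or 2 (adjusted p 0.208 and 0.0957) or wild-type 2500 lux replicate 2 or 3 (0.092 and 0.102). The averaged fall of 1421028_a_at was lost without wild-type 50 lux replicate 1 (adjusted p 0.067). Whether the knockout response was the larger was tested directly, and the difference between the genotypes' averaged responses, -0.55 (95% interval -1.02 to -0.08), did not pass after adjustment (limma adjusted p 0.451). Taken by dose, in tests added after the data were seen, the difference was -1.06 at 2500 lux (SE 0.24, unadjusted p 0.000752, adjusted p 0.228). At 5000 lux it was -0.03 (SE 0.26, adjusted p 0.975). The other Mef2c probe sets gave -0.59 to -0.74 at 2500 lux (limma adjusted p 0.44 to 0.546). Mef2c is also expressed in microglia and in vessel endothelium. Of 5 microglial markers tested, 1 rose and 1 fell in the knockout at 2500 lux (median 0.06), and 2 rose and none fell in the averaged contrast, with a summed level of 8.03 to 8.42 in the knockout at 50 lux and 7.92 to 8.45 at 2500 lux; Itgam sat at the array's lowest value or within rounding of it. Of 5 endothelial and pericyte markers 1 rose, the VEGF receptor gene Kdr (0.85, SE 0.09, adjusted p 1.07e-05), with summed levels of 10.15 to 10.53 and 10.52 to 10.61 in the same knockout groups, and Pecam1 and Cdh5 were at or near the lowest value. In wild type 3 of the 5 microglial markers rose at 2500 lux (median 1.29) and 2 at 5000 lux (median 1.12), and none fell. Their summed level there was 7.52 to 7.56 at 50 lux and 8.08 to 8.44 at 2500 lux. The median of their differences between the genotypes' averaged responses was -1.01, and none of 5 passed. Of the endothelial and pericyte markers 1 of 5 rose in wild type at 2500 lux (median 0.72). Their summed level was 9.85 to 9.92 at 50 lux and 10.63 to 11.07 at 2500 lux. The part of these cells in the Mef2c values was not tested.

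**Figure D3:**
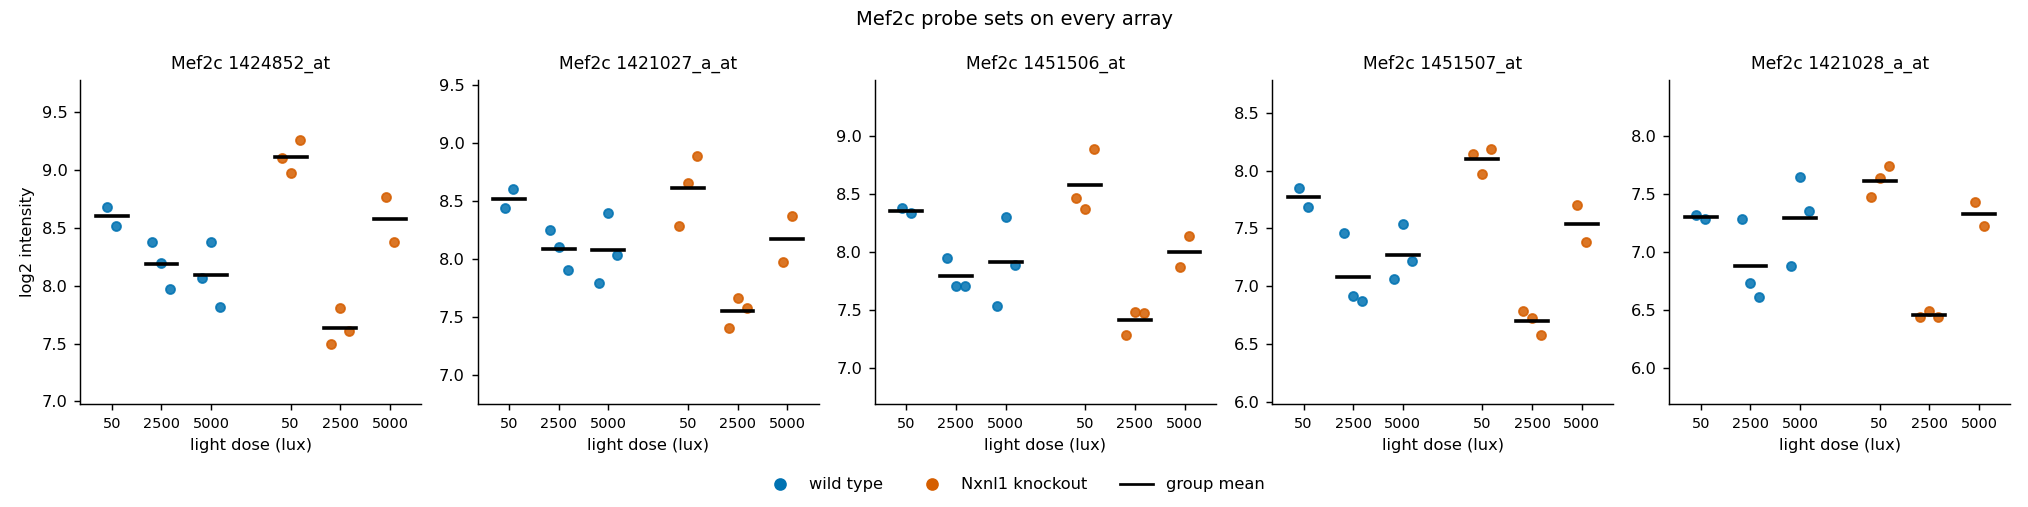
Log2 intensity of the 5 Mef2c probe sets on each array (vertical axis, a separate range per panel) by genotype and dose; points are arrays and bars are group means. In each panel the knockout 2500 lux arrays sit below the knockout 50 lux arrays.

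Rorb encodes an orphan nuclear receptor needed for rod and cone differentiation, and its 3 probe sets disagreed on the averaged light change. The brightest (1455799_at) read 10.75 and 11.66 in wild type at 50 lux, 10.82 to 11.24 at 2500 lux and 10.61 to 10.82 at 5000 lux; in the knockout it read 9.87, 10.47 and 10.58, then 10.78 to 10.98, then 10.63 and 11.18. Its averaged light change was 0.14 (SE 0.16, limma adjusted p 0.547). The second (1439862_at) read 11.25 and 11.23 in wild type at 50 lux and 10.08 to 10.57 after brighter light, so all 6 bright wild-type arrays lay lower. Averaged over genotypes it changed by -0.59 (SE 0.09, limma adjusted p 0.000314), and the 1425162_at probe set by -0.02 (SE 0.15, adjusted p 0.921).

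By limma, 1439862_at fell in wild type by 0.86 at 2500 lux (SE 0.15, adjusted p 0.00214) and by 0.95 at 5000 lux (SE 0.15, adjusted p 0.00112), with knockout changes of -0.27 (adjusted p 0.185) and -0.27 (adjusted p 0.251). The Rorb probe set 1425162_at read 9.44 and 10.27 in wild type at 50 lux, 8.67 to 9.45 at 2500 lux and 9.10 to 9.17 at 5000 lux, and in the knockout 8.22, 8.78 and 8.49, then 8.92 to 9.14, then 9.26 and 9.29. All knockout bright arrays lay above the knockout 50 lux arrays, and all wild-type 5000 lux arrays below the wild-type 50 lux arrays, but no light change of this probe set passed: it was -0.71 (adjusted p 0.0846) and -0.71 (adjusted p 0.0929) in wild type and 0.55 (adjusted p 0.104) and 0.78 (adjusted p 0.0595) in the knockout. At 50 lux every Rorb probe set was lower in the knockout, without overlap. The brightest was at -0.90 and 1439862_at at -0.64 (SE 0.15, limma adjusted p 0.106), and neither passed. The 1425162_at probe set was lower by 1.36 (SE 0.25, fold 2.57, limma adjusted p 0.041). That call was lost in 15 of 25 alternative settings; among them, leaving out wild-type 50 lux replicate 2 gave -0.95 (adjusted p 0.521) and leaving out knockout 50 lux replicate 1 gave -1.22 (adjusted p 0.156).

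**Figure D4:**
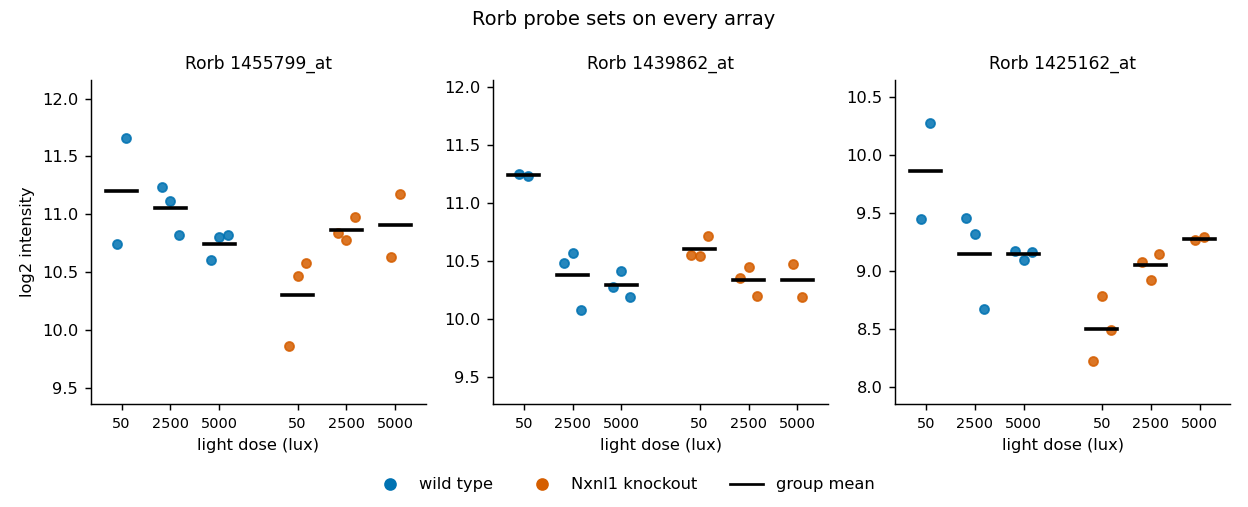
Log2 intensity of the 3 Rorb probe sets on each array (vertical axis, a separate range per panel) by genotype and dose; points are arrays and bars are group means. In wild type 1439862_at is higher at 50 lux, at 11.23 and 11.25, than on any brighter array, and 1425162_at has its lowest group mean in the knockout at 50 lux.

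Rxrg, the retinoid X receptor of cones, was near the log2 4 limit, at 3.76 to 4.55 over all arrays, and none of its contrasts passed. Several arrays, both at 50 lux in wild type among them, read exactly the same value, 4.16. Its intervals therefore say little about its response. Its averaged light change was -0.17 (SE 0.09, limma adjusted p 0.195).

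The genotype comparison asked whether loss of Nxnl1 shifted the factors. By the brightest probe set limma called 0 of 8 members at 50 lux (0.403% of all genes), 0 at 2500 lux (0.137%), 0 at 5000 lux (0.00916%) and 0 in the mean over doses (0.0275%). At an unadjusted p below 0.05 the counts were 3, 1, 1 and 0. At 50 lux these were Rorb at -0.90 (95% interval -1.47 to -0.33, adjusted p 0.177; -0.44 without wild-type 50 lux replicate 2 and -1.35 without replicate 1), Otx2 at -0.24 (-0.47 to -0.01, adjusted p 0.325) and Mef2c at 0.51 (0.12 to 0.91, adjusted p 0.24). At 2500 lux it was Mef2c at -0.55 (-0.90 to -0.20, adjusted p 0.524), and at 5000 lux Mef2c at 0.48 (0.09 to 0.87, adjusted p 1.0). The other Mef2c probe sets differed less, by 0.09 to 0.33 at 50 lux, -0.38 to -0.54 at 2500 lux and 0.03 to 0.27 at 5000 lux. None of these passed. At 50 lux the summed microglial level was 8.03 to 8.42 in the knockout and 7.52 to 7.56 in wild type. That of endothelial cells and pericytes was 10.15 to 10.53 and 9.85 to 9.92. The part of these cells in the Mef2c value was not tested.

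At 50 lux 5 members (Crx, Otx2, Rorb, Neurod1 and Samd7) were lower in every knockout array than in either wild-type array, where 7.3% of all genes were lower without overlap. The median member differed by -0.14 there and the median gene by 0.12. The lens level also separated these groups, at 10.78 to 12.68 in the knockout and 5.04 to 7.05 in wild type; its part in these values was not tested. For Crx, Nrl and Otx2 averaged over doses, the 95% intervals of the genotype difference were -0.18 to 0.09, -0.23 to 0.12 and -0.25 to 0.00. The dimmer Crx probe set (1449185_at) was at -0.21 over doses (-0.37 to -0.05, limma adjusted p 0.576). At 50 lux it was at -0.58 (-0.87 to -0.30), without overlap. That difference did not pass (limma adjusted p 0.0976), except without knockout 50 lux replicate 2 (0.0395).

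The interaction asked whether bright light acted differently in the 2 genotypes. Limma called 0 of 8 members, where 0.0824% of all genes passed, and 2 had an unadjusted p below 0.05: Rorb at 0.88 (95% interval 0.20 to 1.57, adjusted p 0.425; 0.43 without wild-type 50 lux replicate 2 and 1.34 without replicate 1) and Mef2c at -0.55. The other Rorb probe sets were at 0.64 (1439862_at, 0.25 to 1.03, adjusted p 0.321) and 1.38 (1425162_at, 0.73 to 2.03, adjusted p 0.187). The other Mef2c probe sets were at -0.31 to -0.51, each with an interval that included 0. By the brightest probe set, the 95% interval of the difference was -0.16 to 0.43 for Crx, -0.50 to 0.27 for Nrl and -0.10 to 0.45 for Otx2. It was -0.16 to 0.44 for Neurod1, -0.70 to 0.10 for Rxrg and -0.34 to 0.86 for Samd7. The dimmer Crx probe set (1449185_at) was at 0.56 (0.21 to 0.90, limma adjusted p 0.321).

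The genes that these factors control were taken as lists, in the contrast of bright light against 50 lux averaged over genotypes. There 14.4% of all genes rose and 17.8% fell, which holds for each list below. Of 20 rod genes tested, 19 fell and none rose, with a median of -0.55 against -0.03 over all genes. They ranged from Prph2, the disc rim protein (-1.83, SE 0.57, adjusted p 0.0292, limma), to Rp1, a microtubule protein of the axoneme that did not pass (-0.07). The 4 with the smallest p were Cngb1, a subunit of the rod cyclic nucleotide-gated channel (-0.99, SE 0.09, fold 1.99, adjusted p 1.93e-06), Reep6, a rod membrane trafficking protein (-0.85, SE 0.09, fold 1.81, adjusted p 1.53e-05), Pde6b, a rod phosphodiesterase subunit (-0.55, SE 0.06, fold 1.47, adjusted p 1.98e-05), and Rom1, a disc rim partner of Prph2 (-0.51, SE 0.06, fold 1.43, adjusted p 2.27e-05). Bright arrays lay below all 50 lux arrays for each of these. The list includes Nxnl1, whose averaged change of -0.53 (adjusted p 0.0478) joins a genotype that lacks it.

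Of 11 cone genes tested, 5 fell and 1 rose, with a median of -0.35. Opn1sw, the short-wave cone opsin, changed by -1.51 (SE 0.24, fold 2.84, adjusted p 0.000389), Arr3, cone arrestin, by -1.42 (SE 0.17, fold 2.68, adjusted p 4.42e-05), and Gnat2, the cone transducin alpha subunit, by -0.82 (SE 0.12, fold 1.76, adjusted p 0.000183). Gnb3, the beta subunit of transducin in cones and of the ON bipolar G protein, rose by 1.18 (SE 0.08, fold 2.26, adjusted p 2.45e-07, limma).

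Other regulators of photoreceptor genes moved only downward where they passed: of 22 tested, 7 fell, 0 rose and 15 did not pass, with a median of -0.18. Samd11, the partner of Samd7 in the rod Polycomb complex, changed by -1.39 (SE 0.09, fold 2.62, adjusted p 2.02e-07). Its change was called in each genotype and dose: -1.48 and -1.38 in wild type at 2500 and 5000 lux, and -1.68 and -1.02 in the knockout. Rxra, a retinoid X receptor, changed by -0.85 (SE 0.09, fold 1.80, adjusted p 1.23e-05), Pias3, the SUMO ligase that modifies rod and cone regulators, by -1.08 (SE 0.12, fold 2.11, adjusted p 2.24e-05), and Prdm1, which keeps precursors from the bipolar fate, by -0.86 (SE 0.11, fold 1.81, adjusted p 5.07e-05, limma). The MEF2 paralogs did not pass: Mef2a was at -0.03 (adjusted p 0.732) and Mef2d at 0.04 (adjusted p 0.784), both named after their values were seen.

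Of 19 coactivators and chromatin partners tested 3 rose, a share near the 14.4% of all genes that rose, and 0 fell, with a median of 0.02: Ezh2, the Polycomb methyltransferase (0.38, SE 0.09, adjusted p 0.00499), Sp1, a general activator (0.46, SE 0.15, adjusted p 0.0372), and Ncoa1, a nuclear receptor coactivator (0.23, SE 0.08, adjusted p 0.0478, limma). Bmi1, a Polycomb ring component, came next by p, at -0.16 (adjusted p 0.0556).

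Regulators of other retinal cells served as a contrast. Of 24 tested 5 rose, where 14.4% of all genes did, and 2 fell, where 17.8% did, with a median of -0.04. Sox2, a Müller glia and amacrine factor, rose by 0.60 (SE 0.10, fold 1.51, adjusted p 0.000485), while the bipolar factors Vsx1 and Lhx3 changed by -0.93 (SE 0.16, fold 1.91, adjusted p 0.00071) and -0.48 (SE 0.09, fold 1.40, adjusted p 0.00146, limma). Irf8, a microglial factor, averaged 4.40 after bright light and 2.61 at 50 lux, below the log2 4 limit, so no fold is given (adjusted p 3.42e-06).

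**Figure D5:**
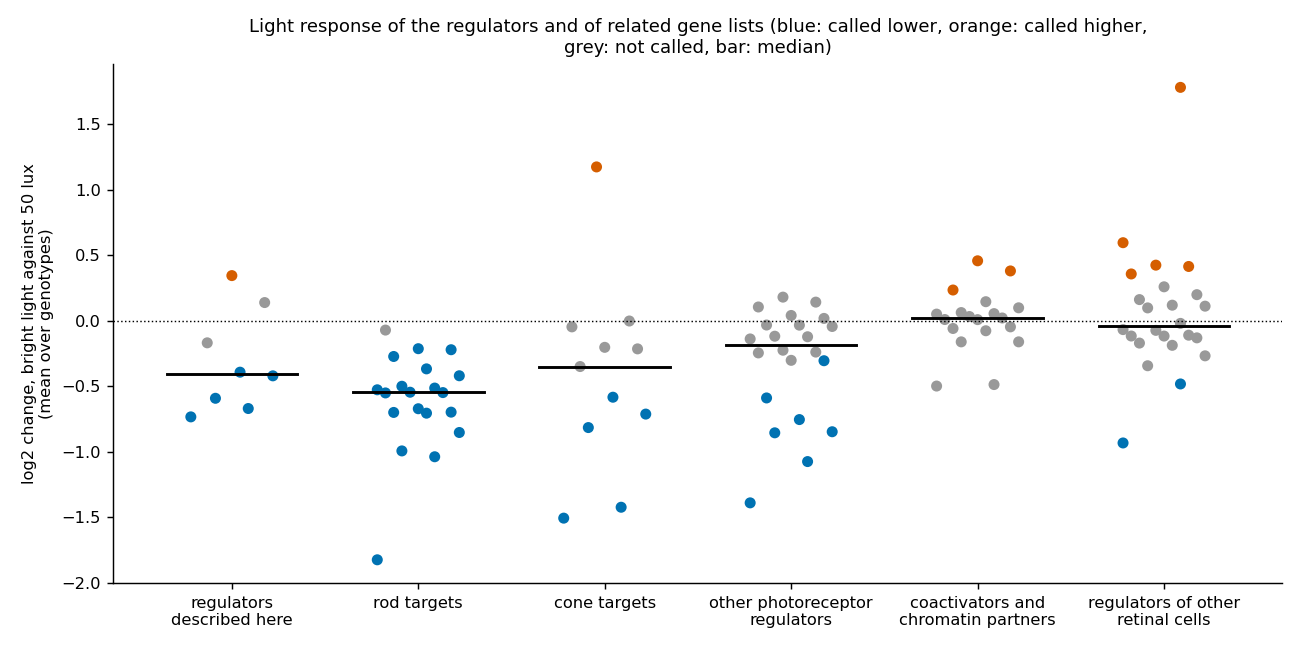
Log2 change in bright light against 50 lux averaged over genotypes (vertical axis) for the genes of each list, 1 point a gene, with the median as a bar; blue was called lower by limma, orange higher, grey not called. Of the 20 rod genes 19 are called lower, and the median of that list is -0.55, beside -0.41 for the 8 regulators.

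Genes with the pattern most like a member's were sought among 8823 genes, by the root mean square difference of the 6 group means after each was centred, for members whose means spanned at least 0.5. The nearest to Crx were Epb41l2 (0.0246) and Gnb1 (0.0334), to Nrl Tulp1 (0.0359) and Pmm1 (0.0378), to Otx2 Armc1 (0.0240) and Tpd52 (0.0353), and to Samd7 Camta2 (0.0439) and Gpr152 (0.0451), on the log2 scale. Gnb1 and Tulp1 are known photoreceptor genes, for the rod transducin beta subunit and a ciliary trafficking protein. The smallest differences were larger for Rorb, at 0.124 (Meak7, then Snapc3 at 0.128). For Mef2c they were 0.127 (Gpld1) and 0.148 (Rp1l1, a photoreceptor axoneme gene). The measure is not scaled to the span of a member's means, which was 1.48 for Mef2c, 0.95 for Nrl and 0.90 for Rorb. Rxrg and Neurod1 spanned 0.38 and 0.47 and were not matched.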

How the data were processed

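The authors deposited linear intensity values for each probe set on each array, made with GCRMA (background correction, normalization and summarisation), per the submitters' processing notes; its version is not stated there. Their lowest value, 4.62, filled 30.9% to 31.5% of each array, so low genes have only an upper bound. Log2 was taken. Of 45037 probe sets, 34945 had 1 symbol, 932 several and 9160 none; the 23320 above log2 4 on at least 2 arrays were tested. In limma 3.58.1 (R 4.3.3) a mean per group was fitted to all 16 arrays with empirical Bayes moderation and no trend (10 residual and 3.18 prior degrees of freedom), and 12 contrasts were taken. P-values were adjusted by Benjamini-Hochberg over all probe sets tested. The fit was tested on simulated data. Promoter windows came from a RefSeq table. Named genes are all members and up to 4 per list by p in the averaged light contrast, plus target genes called between genotypes (Nxnl1); Prph2, Rp1, Mef2a, Mef2d, Nr1d1 and markers were named after their values were seen. The members and lists were chosen with earlier results of these data known. The closing section gives the alternatives. The number of arrays, 2 or 3 a group, limits the precision.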

Additional observations from a re-analysis of the deposited data

Results flagged for a closer look

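At 5000 lux the Rorb probe set 1425162_at moved in opposite directions in the genotypes: all wild-type arrays lay below those at 50 lux and all knockout arrays above. The knockout change minus the wild-type change was 1.49 on the log2 scale (SE 0.35, unadjusted p 0.000934, limma adjusted p 0.282), a test added after the data were seen. It did not pass after adjustment. Neither change passed alone: -0.71 in wild type (limma adjusted p 0.0929) and 0.78 in the knockout (adjusted p 0.0595). Group means in wild type and knockout were 9.86 and 8.50 at 50 lux, and 9.14 and 9.28 at 5000 lux. In the same order, the change at 5000 lux was -0.95 and -0.27 for 1439862_at. For 1455799_at it was -0.46 and 0.60.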

How the results depend on the processing

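The averaged contrast of bright light against 50 lux called 6 members under every setting run. In wild type at 2500 lux, with 3 members called, the count was 5 with the mean of all probe sets of a gene, 0 in a fit of only the arrays compared, and 1 to 4 when single arrays were left out. In wild type at 5000 lux, with 4 called, it was 2 without a filter, 2 with the replicate number as a block, 1 in a fit of only the arrays compared, 6 with array weights (Neurod1 and Mef2c added), and 0 to 4 when single arrays were left out. In the knockout at 5000 lux, with 2 called, it was 1 without a filter, 1 after quantile normalization, 0 with array weights, 0 with only the arrays compared, 3 with the replicate block (Mef2c added), and 0 to 2 when single arrays were left out. The knockout step from 2500 to 5000 lux went from 0 to between 0 and 1, and the knockout at 50 lux from 0 to 1 (Rorb, by the mean of its probe sets). In the knockout at 2500 lux, with 6 called, the count was 5 to 6 when single arrays were left out and 5 to 6 under the other settings. No called change reversed its sign. The cause of these shifts in the counts was not tested. The labels do not say whether replicate numbers pair arrays across groups, and the main fit did not use them. Same-numbered arrays of different groups had deviations correlating at a median of 0.17 over 36 pairs (21 above 0.1). For 70 pairs of different numbers it was -0.11 (13 above 0.1). Deviations sum to 0 within a group, so these 2 medians are tied and the second is not separate evidence. An effect shared by replicate number remains possible. With the block, the wild-type 5000 lux calls of Nrl (limma adjusted p 0.0501) and Samd7 (0.071) were lost.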

Other observations

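Of 10 circadian genes linked to Rorb and Nr1d1, 2 rose and 2 fell after bright light averaged over genotypes, with a median of -0.05; these shares lie near those of all genes, of which 14.4% rose and 17.8% fell. Ciart, a repressor of the clock, rose by 0.62 (SE 0.15, limma adjusted p 0.00613) and Dbp, a clock output factor, by 0.34 (SE 0.10, adjusted p 0.0188). Arntl, the core activator, changed by -0.30 (SE 0.06, adjusted p 0.00313) and Cry2, a core repressor, by -0.21 (SE 0.06, adjusted p 0.0284). Nr1d1 itself was at -0.12 (adjusted p 0.649).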
